A study of Mus musculus with 19 samples.

Results

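The nuclear receptors Nr1d1 (REV-ERBα), Nr1d2 (REV-ERBβ) and Rora (RORα), the PAR bZIP activators Dbp, Tef and Hlf, the bZIP repressor Nfil3 (E4BP4) and the basic helix-loop-helix repressors Bhlhe40 (DEC1) and Bhlhe41 (DEC2) were followed in mouse liver RNA. They were chosen by name as transcription factors that connect the circadian clock with its output, with earlier results of these data known. All 9 were found among the 14576 genes of the deposited counts and passed the filter on low counts, which left 12493 genes. The mice labelled tg were AgRP-IRES-Cre tg/wt and carried a Cre-dependent ChR2 (channelrhodopsin-2, a light-gated cation channel) as ROSA26 ChR2 fl/wt. The mice labelled wt were AgRP-IRES-Cre wt/wt and carried the same ROSA26 ChR2 fl/wt allele, without the driver. Both genotypes, adult and randomly fed until then, received 473 nm light through a fibre above the arcuate nucleus of the hypothalamus, with no food present. The groups were tg 2 h (4 livers), wt 2 h (5 livers), tg 4 h (5 livers) and wt 4 h (5 livers). Light began at zeitgeber time (ZT, hours after lights on) 5.5 for 2 h and at ZT 3.5 for 4 h, and every liver was taken at ZT 7.5. The driver follows the gene of agouti-related peptide, which marks hunger-promoting hypothalamic neurons, so the liver was read as a distant tissue. No tg mice without light were among the groups, so carrying the driver and exciting the neurons cannot be told apart, and the durations differ also in start time and in time without food.

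In the liver clock, the activator pair BMAL1 and CLOCK binds E-boxes, and REV-ERB proteins repress, while ROR proteins activate, genes that carry a shared response element, the RORE. DBP, TEF and HLF activate genes through D-boxes, and NFIL3 represses through the same sequence. DEC1 and DEC2 repress at E-boxes. In mouse liver under a light-dark cycle Nr1d1 and Dbp transcripts are abundant in the light phase, when these livers were taken, and Nfil3 transcripts in the dark phase.

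Promoter sequences show which of these elements lie next to the members' own start sites. The 250 bases before each RefSeq start (build GRCm38.p6) were available for 8 members, all but Bhlhe40, and were searched on both strands for the E-box CACGTG, the E′-box CACGTT, the D-boxes TTATGTAA and TTACGTAA, the cAMP element TGACGTCA, the RORE and the glucocorticoid element. The sequences below are those of the members with an E-box or E′-box outside annotated exons, in capitals, and of Dbp, which had no match. They read 5′ to 3′ on the gene's strand and, for Bhlhe41 and Dbp, stop where an annotated exon begins.
Nr1d1, chr11:98775378-98775627, minus strand: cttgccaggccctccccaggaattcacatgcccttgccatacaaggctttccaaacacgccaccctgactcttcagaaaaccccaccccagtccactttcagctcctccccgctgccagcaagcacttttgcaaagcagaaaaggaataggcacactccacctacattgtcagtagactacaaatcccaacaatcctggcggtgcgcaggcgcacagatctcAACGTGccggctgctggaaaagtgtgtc
Bhlhe41, chr6:145865559-145865670, minus strand: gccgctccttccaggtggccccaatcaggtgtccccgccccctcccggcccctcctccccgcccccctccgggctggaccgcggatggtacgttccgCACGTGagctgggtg
Tef, the second of its starts, chr15:81811164-81811413, plus strand: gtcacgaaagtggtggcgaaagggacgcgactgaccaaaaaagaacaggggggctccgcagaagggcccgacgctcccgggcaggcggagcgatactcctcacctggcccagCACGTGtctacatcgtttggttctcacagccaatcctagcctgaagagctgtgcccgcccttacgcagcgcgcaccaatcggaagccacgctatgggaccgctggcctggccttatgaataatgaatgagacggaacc
Dbp, chr7:45704997-45705087, plus strand: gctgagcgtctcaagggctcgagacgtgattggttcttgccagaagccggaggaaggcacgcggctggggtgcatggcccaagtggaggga

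The Nr1d1 window held AACGTG, the reverse complement of the E′-box, with its first base at -28 from the start, and the Bhlhe41 window held CACGTG at -153. Tef held CACGTG at -127 from its first start and at -138 from its second. The window of the first Tef start begins inside an annotated exon of the gene, so its sequence is not shown. Of 32851 mouse promoters of the same length, 6.02% held the E-box and 3.85% the E′-box. The Hlf window held the cAMP element at -9, as did 1.55% of promoters. No match to any of the 6 motifs was found in the windows of Nr1d2, Rora, Dbp or Nfil3. D-boxes were present in 0.931% of promoters, ROREs in 0.35% and the glucocorticoid element in 0.387%, and none of the members' windows held one. For Nr1d1 and Hlf, the bases just after the RefSeq start were found in no transcript of the gene in the GENCODE annotation. Their positions therefore refer to the RefSeq start alone. A match describes these letters only.

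Libraries of tg 2 h held 22556713 to 25366744 counts and those of wt 2 h 22961887 to 32721605. At 4 h, tg libraries held 21474255 to 28419872 counts and wt libraries 22263155 to 30941927. Hepatocyte markers (6 of 6 measured) summed to between 62050 and 95730 CPM (counts scaled to a common library total) in tg 2 h, between 70270 and 91100 in wt 2 h, between 83960 and 99630 in tg 4 h and between 68740 and 90870 in wt 4 h, and none passed the test between genotypes at either duration. Among markers of 8 other cell types, 1 of 5 cholangiocyte genes was lower in tg than in wt at 2 h and none passed at 4 h. The median log2 fold change of that list was 0.34 at 2 h and 0.23 at 4 h, and its summed level at 2 h was 22.2 to 54.0 CPM in tg, against 28.7 to 37.7 CPM in wt. Erythroid genes had medians of -0.552 at 2 h and -0.548 at 4 h, with none called. At 4 h the median was 0.618 for neutrophil genes and -0.531 for T and NK cell genes, also with none called. These summed to at most 9.67 and 1.73 CPM in any 4 h library. The part of these markers in the members' values was not tested. In bulk liver, fewer cells of a type and less RNA per cell cannot be told apart. Libraries tg 4 h replicate 3 and wt 4 h replicate 1 stood apart from their group over the genes that differed between genotypes. On a scale where the wt mean is 0 and the tg mean is 1, set by genes called without the library in question, the median position was 0.559 for tg 4 h replicate 3 and 0.537 for wt 4 h replicate 1. The other tg 4 h libraries lay between 0.91 and 1.11 and the other wt 4 h libraries between -0.18 and 0.277. At 2 h, tg libraries lay between 0.782 and 1.06 and wt libraries between -0.0563 and 0.262. Highest of wt 2 h was replicate 2, at 0.262, with replicate 4 next at 0.193. Mitochondrial transcripts made up 7.75% of counts in tg 2 h replicate 1 and 7.83% in wt 4 h replicate 1.

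The first question was which members differed between genotypes at each duration. At 2 h, Nr1d1 and Bhlhe41 were lower in tg livers, so that 2 of 9 members passed an adjusted p of 0.05, against 2.16% of all genes tested in either direction and 1.02% lower. At 4 h, Nr1d1, Dbp and Bhlhe41 were lower and Rora and Nfil3 higher in tg livers, so that 5 of 9 members passed, against 11.4% of all genes, with 3 of 9 lower (5.64% of all genes) and 2 of 9 higher (5.75%). The same 5 passed in the mean of both durations, against 14.2% of all genes. Nr1d2, Tef, Hlf and Bhlhe40 passed in none of these comparisons. The median log2 fold change of the 9 members was -0.11 at 2 h and -0.21 at 4 h, beside 0.0071 and -0.01 for all genes. As the members were chosen with earlier results of these data known, these shares describe them and do not test the set.

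**Figure D1:**
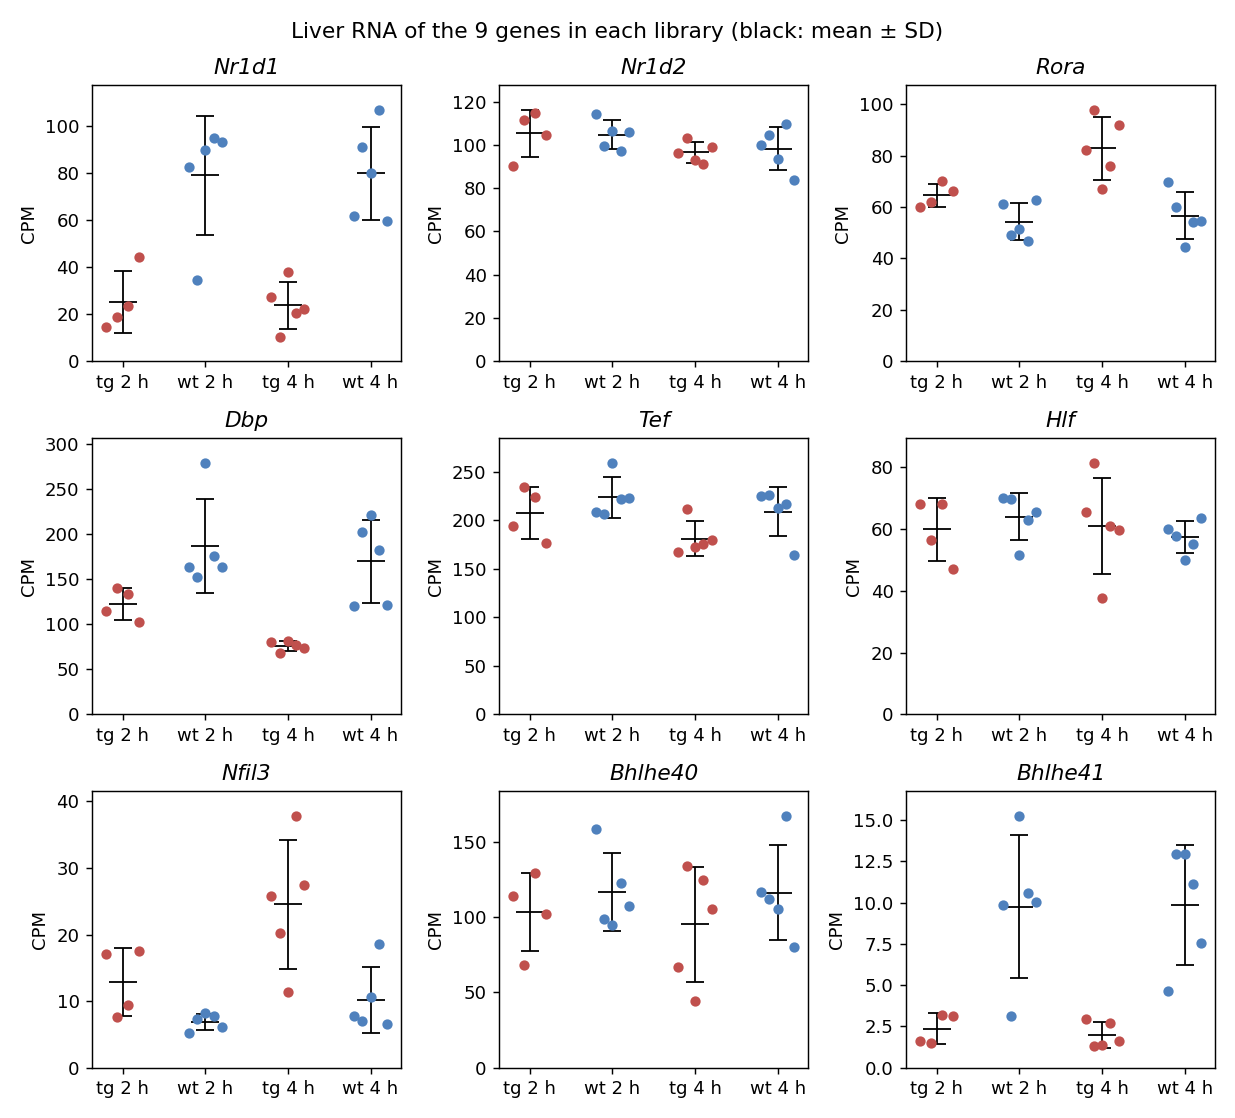
Normalised counts (CPM, vertical axis, from 0) of each member in every library of tg 2 h, wt 2 h, tg 4 h and wt 4 h. Points are libraries and bars are the group mean ± SD. Nr1d1 averaged 25.4 CPM in tg 2 h and 79.2 in wt 2 h, while Nr1d2 averaged 105 CPM in both.

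Nr1d1 encodes REV-ERBα, the haem-binding repressor that limits BMAL1 transcription. The gene (ENSMUSG00000020889) lies on chromosome 11 at 98767932 to 98775333 on the minus strand of GRCm38. Its level was 14.8, 18.8, 23.5 and 44.4 CPM in tg 2 h, against 82.7, 34.8, 90.2, 95.1 and 93.3 CPM in wt 2 h. At 4 h it was 27.4, 10.6, 38.1, 20.4 and 22.4 CPM in tg, against 61.9, 91.3, 80.1, 107 and 59.8 CPM in wt. All tg 4 h livers were below all wt 4 h livers, whereas at 2 h wt replicate 2 lay inside the tg range. The log2 fold change of tg over wt at 2 h was -1.64 ± 0.38 (SE, 95% interval -2.44 to -0.84), with a Benjamini-Hochberg adjusted p of 0.0288 from edgeR's quasi-likelihood F-test. At 4 h it was -1.75 ± 0.35 (SE), or 3.36-fold lower in tg, with an edgeR adjusted p of 0.00408. The call at 2 h did not survive leaving out any single library of that duration other than tg replicate 5 and wt replicate 2 (edgeR adjusted p 0.0558 to 0.103 without each of the others), and the log2 fold change without wt 2 h replicate 2 was -1.83. It also ended when only the 2 h groups were fitted (edgeR adjusted p 0.0547).

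Nr1d2 encodes REV-ERBβ, the paralogue that represses at the same elements. Its level ran from 90.4 to 115 CPM with a median of 108 in tg 2 h, against 97.2 to 114 with a median of 106 in wt 2 h. In 4 h livers it ran from 91.1 to 103 CPM with a median of 96.4 in tg, against 84.0 to 110 with a median of 99.9 in wt. The genotypes overlapped at both durations. The log2 fold change was 0.0086 (95% interval -0.17 to 0.19) at 2 h and -0.03 (-0.20 to 0.15) at 4 h, with edgeR adjusted p of 0.991 and 0.883. In the same livers the log2 ratio of Nr1d1 to Nr1d2 was -3.28 to -1.29 in tg 4 h, against -0.69 to -0.04 in wt 4 h, with no overlap. At 2 h the ratio was -2.60 to -1.24 in tg and -1.51 to -0.03 in wt, and these ranges overlapped.

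Rora encodes RORα, the activator that competes with the REV-ERB proteins. Its level was 60.2, 61.9, 70.2 and 66.2 CPM in tg 2 h, against 61.1, 49.1, 51.7, 46.7 and 62.6 CPM in wt 2 h. In 4 h livers it was 82.2, 97.7, 66.9, 75.9 and 91.8 CPM in tg, against 69.8, 60.0, 44.6, 54.3 and 54.5 CPM in wt. The 4 h groups overlapped only where tg replicate 3 lay below wt replicate 1, the libraries that stood apart. At 4 h Rora was 1.46-fold higher in tg (log2 0.55 ± 0.12, SE), with an edgeR adjusted p of 0.00488. Without both of those libraries, an exclusion chosen after seeing the data, the log2 fold change was 0.70. That exclusion also raised the genes called by edgeR at 4 h from 1423 to 1994, so the larger value is no separate support. At 2 h the log2 fold change was 0.25 (95% interval -0.01 to 0.51) with an edgeR adjusted p of 0.455.

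The log2 ratio of Nr1d1 to Rora within a liver put repressor and activator transcripts on 1 scale. It was -2.02 to -0.58 in tg 2 h, against -0.50 to 1.03 in wt 2 h. In 4 h livers it was -3.20 to -0.81 in tg, against -0.17 to 0.98 in wt. The ratio was lower in every tg liver than in every wt liver of its duration. No test was run on ratios between members, and the share of other gene pairs with separate ratios was not computed. A ratio of members that differ in opposite directions, as Nr1d1 to Rora or Nfil3 to Dbp, carries both differences and adds no separate result.

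Dbp encodes an activator at D-boxes that is under direct clock control. Its level was 115, 141, 134 and 102 CPM in tg 2 h, against 163, 152, 278.5, 176 and 163 CPM in wt 2 h. In 4 h livers it was 80.7, 68.3, 81.6, 76.7 and 73.6 CPM in tg, against 121, 203, 221, 183 and 122 CPM in wt. Dbp was the member whose genotypes were separate at both durations, and the tg 4 h livers varied little among themselves, with 76.2 ± 5.48 CPM (SD, n = 5). At 4 h it was 2.23-fold lower in tg (log2 -1.16 ± 0.18, SE), with an edgeR adjusted p of 0.000341. At 2 h the log2 fold change was -0.60 ± 0.19 (SE), with an edgeR adjusted p of 0.121, and -0.42 without wt 2 h replicate 3, its highest library. DESeq2 called Dbp at 2 h, with an adjusted p of 0.0497. Non-overlapping genotypes were seen for 1 of 9 members at 2 h, against 6% of all genes, and for 3 of 9 at 4 h (Nr1d1, Dbp and Bhlhe41), against 8.19%.

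Tef and Hlf, the other PAR bZIP activators, passed at neither duration. Tef ran from 177 to 234 CPM (median 209) in tg 2 h, against 206 to 259 (median 222) in wt 2 h, and from 167 to 212 (median 175) in tg 4 h, against 164 to 226 (median 217) in wt 4 h. Its log2 fold change was -0.11 (95% interval -0.34 to 0.12) at 2 h and -0.21 (-0.42 to 0.01) at 4 h. Hlf ran from 47.1 to 68.3 CPM (median 62.3) in tg 2 h, against 51.8 to 70.2 (median 65.7) in wt 2 h, and from 37.7 to 81.4 (median 61.2) in tg 4 h, against 50.0 to 63.8 (median 57.8) in wt 4 h. For Hlf the log2 fold change was -0.09 (-0.43 to 0.24) at 2 h and 0.09 (-0.22 to 0.40) at 4 h. Genotypes overlapped for both genes. Within livers the log2 ratio of Dbp to Tef was -0.79 to -0.74 in tg 2 h, against -0.45 to 0.11 in wt 2 h. At 4 h it was -1.63 to -1.05 in tg, against -0.90 to 0.05 in wt, so that it separated the genotypes at both durations. The log2 ratio of Dbp to Hlf did not, with 0.75 to 1.31 in tg 2 h, against 1.12 to 2.43 in wt 2 h, and with values in 4 h livers of -0.25 to 1.11 in tg, against 0.93 to 2.14 in wt.

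Nfil3 encodes the repressor that occupies D-boxes in competition with the PAR bZIP proteins. Its level was 17.1, 7.65, 9.45 and 17.6 CPM in tg 2 h, against 5.27, 7.32, 8.16, 7.71 and 6.14 CPM in wt 2 h. Nfil3 at 4 h was 25.8, 20.3, 11.4, 37.8 and 27.5 CPM in tg, against 7.82, 6.98, 10.7, 18.6 and 6.62 CPM in wt. At 4 h the groups overlapped through tg replicate 3, the lowest of its group, and wt replicate 4, the highest of its group. Nfil3 was 2.43-fold higher in tg at 4 h (log2 1.28 ± 0.33, SE), with an edgeR adjusted p of 0.0164, or of 0.0503 when fitted to the 4 h libraries alone. At 2 h the log2 fold change was 0.90 (95% interval 0.17 to 1.64) with an edgeR adjusted p of 0.275. The log2 ratio of Nfil3 to Dbp was -4.19 to -2.53 in tg 2 h, against -5.08 to -4.37 in wt 2 h. At 4 h the ratio was -2.83 to -1.02 in tg, against -4.85 to -3.29 in wt, with no overlap at either duration.

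Bhlhe41 encodes DEC2 and was the least abundant member. Its level was 1.60, 1.49, 3.21 and 3.14 CPM in tg 2 h, against 9.85, 3.13, 15.2, 10.6 and 10.0 CPM in wt 2 h. In 4 h livers it was 2.95, 1.33, 1.36, 2.73 and 1.63 CPM in tg, against 4.63, 13.0, 13.0, 11.2 and 7.57 CPM in wt. The groups did not overlap at 4 h, and at 2 h they met at wt replicate 2, which was also the wt library inside the tg range of Nr1d1. Bhlhe41 was 4.14-fold lower in tg at 2 h (log2 -2.05 ± 0.42, SE), with an edgeR adjusted p of 0.0118, and 4.94-fold lower at 4 h (-2.31 ± 0.39, SE), with an edgeR adjusted p of 0.00115. The call at 2 h ended without tg 2 h replicate 1 (edgeR adjusted p 0.0536) or replicate 2 (0.051), and with limma-voom (adjusted p 0.0776). In tg livers the gene rested on 27 to 78 reads per library.

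Bhlhe40 encodes DEC1, the paralogue of DEC2. It ran from 68.4 to 129 CPM (median 108) in tg 2 h, against 94.4 to 159 (median 107) in wt 2 h, and from 44.5 to 134 (median 105) in tg 4 h, against 80.1 to 167 (median 112) in wt 4 h. Genotypes overlapped at both durations. The log2 fold change was -0.17 (95% interval -0.76 to 0.42) at 2 h and -0.29 (-0.85 to 0.27) at 4 h, with intervals wider than those of Nr1d2, Tef and Hlf. The log2 ratio of Bhlhe41 to Bhlhe40 was -6.082 to -4.985 in tg 2 h, against -4.949 to -2.627 in wt 2 h. In 4 h livers it was -6.576 to -4.473 in tg, against -4.631 to -3.016 in wt, and these ranges overlapped.

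**Figure D2:**
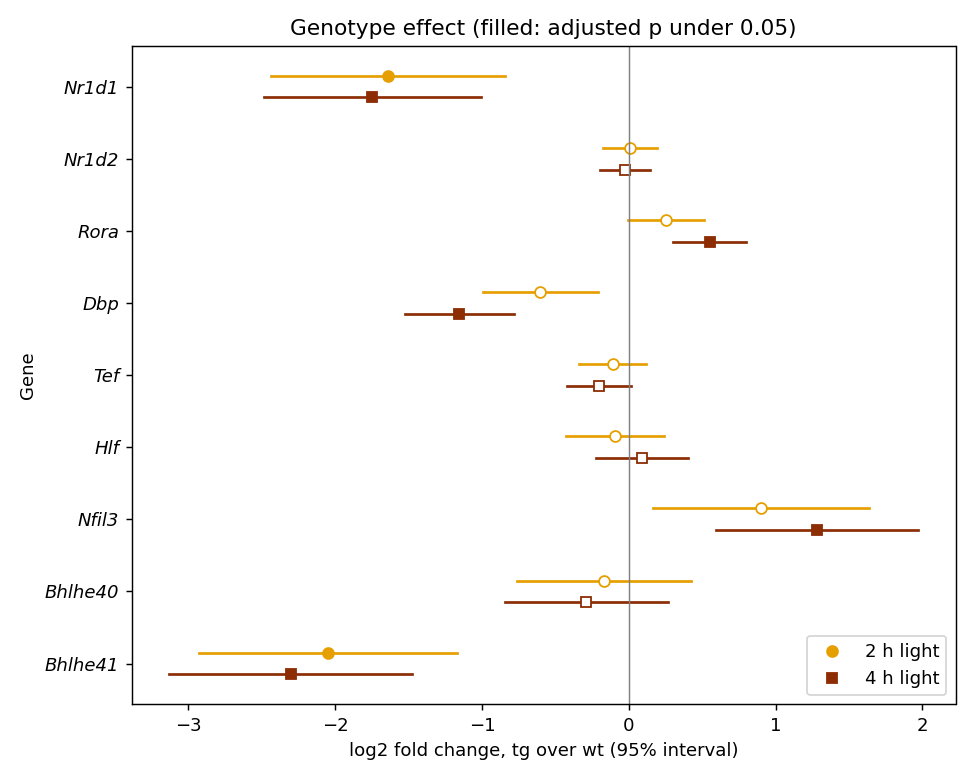
Log2 fold change of tg over wt (horizontal axis) for each member at 2 h and 4 h, as estimates with 95% intervals, filled where the adjusted p was under 0.05. Bhlhe41, at -2.05 and -2.31, and Nr1d1, at -1.64 and -1.75, lie farthest below 0, and Nfil3, at 0.90 and 1.28, farthest above.

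The second question was whether the genotype difference changed with duration. No member passed the test of the 4 h difference against the 2 h difference. Nor did any of the 12493 genes (0% called by edgeR). An unadjusted edgeR p under 0.05, which a share of about 0.05 reaches where no gene differs, was seen for 723 genes and 1 member, Dbp. DESeq2 called 6 genes and limma-voom 0 in that comparison, and neither called a member. For Dbp the log2 fold change at 4 h minus that at 2 h was -0.55 ± 0.26 (SE), with an edgeR adjusted p of 0.859. Durations were then compared within a genotype. In tg, 4 h over 2 h gave 0 of 9 members (0.913% of all genes called). An unadjusted edgeR p under 0.05 was seen there for 3 members (Rora, Dbp and Nfil3) and for 1513 of the 12493 genes. Dbp averaged 76.2 ± 5.48 CPM in tg 4 h (SD, n = 5) and 123 ± 17.7 CPM in tg 2 h (SD, n = 4), without overlap, as in 4.83% of all genes. Its log2 fold change was -0.69 ± 0.19 (SE), with an adjusted p of 0.0862 from edgeR. DESeq2 called 1 member, and a fit to the tg libraries alone called Dbp, with an edgeR adjusted p of 0.0179. In wt, 4 h over 2 h gave 0 of 9 members and 0% of genes by edgeR. There, 747 genes and 0 members had an unadjusted p under 0.05, and DESeq2 called 1 gene.

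Levels were compared between members as CPM per kilobase of the longest annotated transcript. Dbp ranked first in all 4 groups, with 66.8 in tg 2 h, 102 in wt 2 h, 41.5 in tg 4 h and 92.4 in wt 4 h. Tef came second, with 47.1 in tg 2 h, 50.8 in wt 2 h, 41.2 in tg 4 h and 47.5 in wt 4 h. In tg 4 h the ranges of Dbp (37.2 to 44.4) and Tef (38.0 to 48.1) overlapped, whereas in the other groups every Dbp value was above every Tef value. Bhlhe40 ranked 3, between 30.5 and 37.4 on average, and its range overlapped that of Tef in each group. Nr1d1 ranked 6 of 9 in tg 2 h (9.34), 4 of 9 in wt 2 h (29.1), 7 of 9 in tg 4 h (8.74) and 4 of 9 in wt 4 h (29.4). Nr1d2 stayed between 20.7 and 22.6, above Nr1d1 in tg livers, and below its mean in wt livers with overlapping ranges. Hlf averaged 10.2 to 11.4, Rora 4.99 to 7.62 and Nfil3 3.42 to 12.1. Bhlhe41 was lowest throughout, at 0.385 in tg 2 h, 1.59 in wt 2 h, 0.326 in tg 4 h and 1.61 in wt 4 h.

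**Figure D3:**
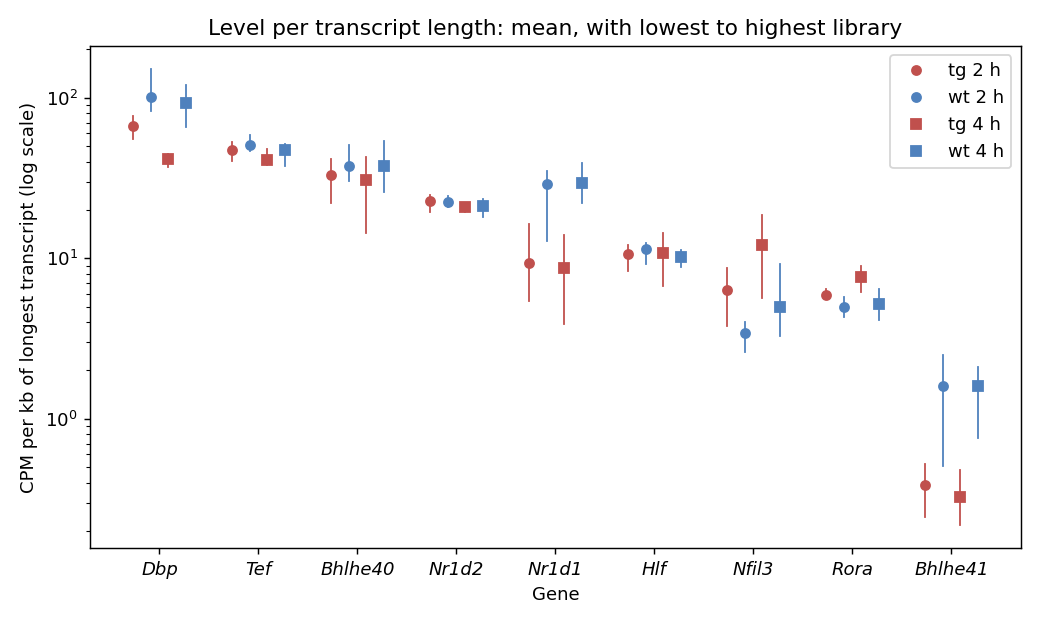
Mean level of each member in CPM per kilobase of transcript (log axis) in tg 2 h, wt 2 h, tg 4 h and wt 4 h, with lines from the lowest to the highest library. Dbp leads in every group and Bhlhe41 is lowest in every group, while Nr1d1 lies at 9.34 in tg 2 h and 29.1 in wt 2 h.

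Across the 19 libraries, members were compared by the root mean square difference of their centred log2 CPM, a description in which the shared genotype difference takes part. Nr1d2 and Tef were the closest pair of members at 0.140, and Nfil3 and Bhlhe41 the farthest apart at 1.77. The measure is not scaled by spread, so genes that vary little, such as Nr1d2 and Tef, lie close whatever their pattern. Among 11133 other genes, Osgin1 was closest both to Nr1d1 (0.433, where the spread of Nr1d1 itself was 1.02) and to Bhlhe41 (0.624, own spread 1.21). Gsk3b, a kinase known to act on REV-ERBα protein, was closest to Rora (0.122, own spread 0.301), with Rc3h1 (0.124) and Lrp6 (0.126) almost as close. Pcsk4 was closest to Dbp (0.210, own spread 0.568) and Arl4a to Nfil3 (0.425, own spread 0.813), with the next genes at 0.2145 and 0.432.

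**Figure D4:**
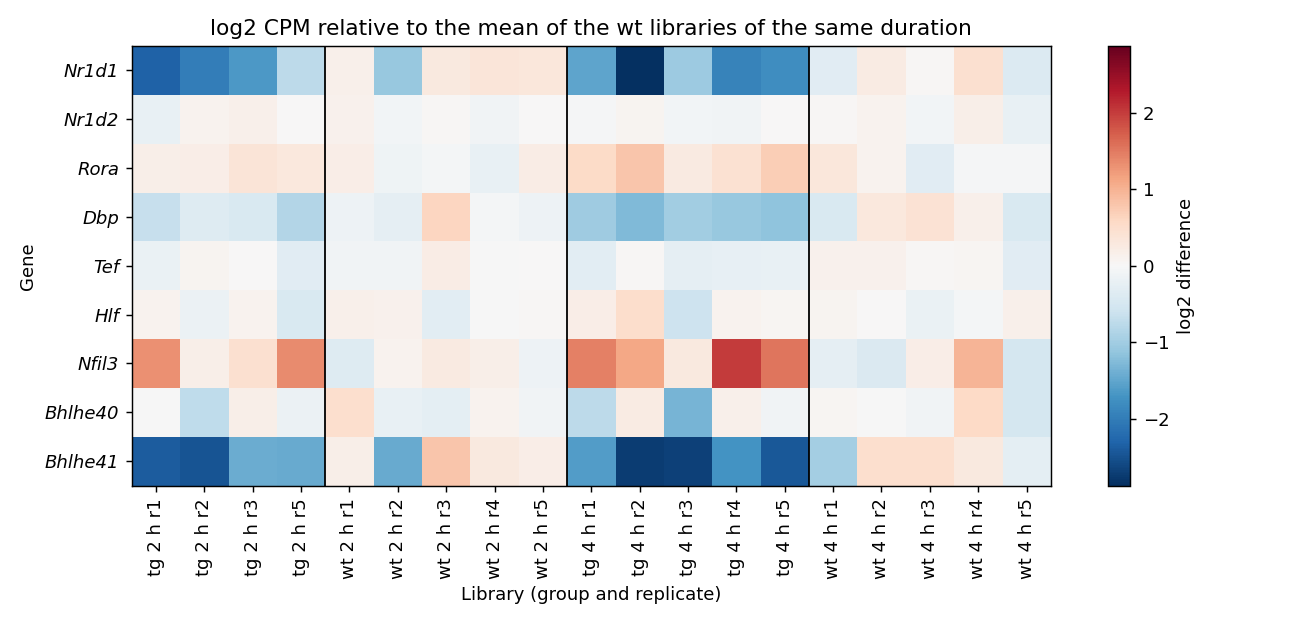
Log2 CPM of the 9 members (rows) in the 19 libraries (columns, tg left of wt in each duration), as the difference from the mean of the wt libraries of the same duration, blue below and red above. Nr1d1, Dbp and Bhlhe41 are below the wt mean in all tg libraries and Rora and Nfil3 above it, while wt 2 h replicate 2 is low for Nr1d1 and Bhlhe41.

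Genes around the members were counted from lists that share genes with each other, beside 2.16% of all genes called at 2 h and 11.4% at 4 h. The lists too were chosen with earlier results of these data known, so the counts are descriptions. Of 8 measured targets of REV-ERB and ROR proteins, 0 passed at 2 h, and 3 were higher and 0 lower in tg at 4 h, with a list median of 0.76 (log2) beside -0.01 for all genes. Those 3 were Arntl (BMAL1), Cry1 and Insig2, an inhibitor of sterol synthesis. Arntl averaged 2.67 ± 0.748 CPM in tg 4 h and 1.09 ± 0.325 CPM in wt 4 h (SD, n = 5 each), a log2 fold change of 1.29 ± 0.32 (SE), against -0.24 ± 0.38 (SE) at 2 h. Cry1, a clock repressor, differed by 0.81 ± 0.20 and Insig2 by 0.90 ± 0.27 (SE, log2) at 4 h. Over the 8 measured genes of the core clock loop, 1 was higher and 0 lower in tg at 2 h, and 4 were higher and 1 lower at 4 h. Per3 was the lower one, with 11.2 ± 2.18 CPM in tg 4 h and 27.4 ± 10.2 CPM in wt 4 h (SD, n = 5 each).

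Of 9 E-box output genes, 2 were higher and 0 lower in tg at 2 h, and 4 were higher and 1 lower at 4 h. Ciart, a repressor of BMAL1 and CLOCK, was higher by 1.20 ± 0.23 at 2 h and 1.21 ± 0.22 at 4 h (SE, log2), and Usp2, a deubiquitinase, by 0.87 ± 0.20 and 0.80 ± 0.19. The gene of this list called lower at 4 h was Per3. Nr1d1 and Bhlhe41 were lower in the same comparisons, and a link between them and Ciart or Usp2 was not tested. Of 11 measured targets of PAR bZIP proteins, 1 was higher and 0 lower in tg at 2 h, and 3 were higher and 2 lower at 4 h, with a list median of 0.04 at 4 h. Alas1, the first enzyme of haem synthesis, averaged 706 ± 211.5 CPM in tg 2 h (SD, n = 4) and 223 ± 40.9 CPM in wt 2 h (SD, n = 5), a log2 fold change of 1.66 ± 0.32 (SE), against 0.16 ± 0.30 (SE) at 4 h. Por, the electron donor of cytochromes P450, had a log2 fold change of 0.83 ± 0.17 at 4 h, and Cyp2b10, one of these cytochromes, 2.13 ± 0.55 (SE). Cyp2b10 ran from 3.93 to 60.3 CPM in tg 4 h, against 3.73 to 14.5 CPM in wt 4 h, with overlap. Per3, also in this list, was lower at 4 h, with -1.28 ± 0.26 (SE, log2). Of 9 corepressors and turnover factors of REV-ERB, 1 was higher at 4 h, Gsk3b, by 0.48 ± 0.12 (SE, log2), and 0 passed at 2 h, a count near the share of all genes called. Of 6 clock kinases and ubiquitin ligase parts, 1 passed at each duration, Usp2.

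Some members share exon sequence with a gene on the other strand, and the sources used here do not give whether strand was used in counting. Nr1d1 shares 263 exonic bases with Thra, a thyroid hormone receptor, whose log2 fold change was -0.09 ± 0.09 at 2 h and -0.26 ± 0.08 at 4 h (SE). Dbp shares 539 exonic bases with Sphk2, a sphingosine kinase, whose log2 fold change was 0.03 ± 0.13 at 2 h and 0.32 ± 0.12 at 4 h (SE). Thra was called lower in tg at 4 h, with an edgeR adjusted p of 0.0498, and Sphk2 was called at neither duration. The part of opposite-strand reads in the values of Nr1d1 and Dbp was not tested. Bhlhe41 shares 1280 exonic bases with Gm43909, not analysed here, so reads of that pair could not be told apart from these values.

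In the authors' deposited table for 2 h, 4 members had an adjusted p under 0.05, with log2 fold changes of -2.05 for Bhlhe41, -1.645 for Nr1d1, 0.90 for Nfil3 and -0.61 for Dbp. Of these, Nfil3 and Dbp were not called at 2 h in the edgeR fit used here (adjusted p 0.275 and 0.121). In the authors' deposited table for 4 h, 5 members had an adjusted p under 0.05, Nr1d1, Rora, Dbp, Nfil3 and Bhlhe41. The share of all genes called in the deposited tables was not computed, so these counts have no background beside them.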

How the data were processed

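RNA of 19 mouse livers was read as poly-A selected, stranded libraries, per the labels' protocols. Per gene, the authors deposited raw counts as whole numbers, and for each duration log2 fold changes with p-values and adjusted p-values of tg over wt, besides a mean normalised signal and a test score that were not used. STAR, Salmon 1.4.0, DESeq2 1.30.0 and build GRCm38.p6 are named in the submitters' processing notes, without their roles. The sources used here do not give how whole counts were made.

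Of 14576 genes, 257 had no value at 4 h and were left out. Counts were fitted in R 4.3.3 with edgeR 4.0.16 (TMM scaling, minimum count 10, minimum total 15, 1 mean per group over all libraries, robust quasi-likelihood F-test, Benjamini-Hochberg adjustment at 0.05 over 12493 genes). Standard errors came from the fold change and F. Residual degrees of freedom were 15 and the common biological coefficient of variation was 0.183. CPM used TMM-scaled totals, and log2 CPM a prior count of 2. The fit was tested on simulated data. DESeq2 1.42.0, limma-voom (limma 3.58.1), other scalings and filters, a replicate block, a fit to only the groups compared and a fit without each library were alternatives. Within groups no 2 libraries agreed within sampling noise (36 pairs, with a chi-square of at least 21.2 per degree of freedom). The labels number the libraries without stating that each is a separate mouse, so p-values measure the spread between these libraries.

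All 9 members are named in every comparison. From each list the called genes with the smallest p, up to 4 per list and comparison, could be named. So could the 3 genes closest to each member called in the mean of both durations. The members and lists were chosen with earlier results of these data known, and part of the lists is not reported here. Positions are from GENCODE M21, promoters from RefSeq and plots from matplotlib 3.10.9.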

Additional observations from a re-analysis of the deposited data

Results flagged for a closer look

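Within each group, the highest and the lowest library of each member were checked with Dixon's ratio. Of 36 groups, 4 held a library far from the others, and chance alone gives about 1 in 20. Nr1d1 was 34.81 CPM in wt 2 h replicate 2, where the others were 82.7 to 95.1. Dbp was 278.5 CPM in wt 2 h replicate 3, where the others were 152 to 176. Tef was 211.7 CPM in tg 4 h replicate 2, where the others were 167 to 180, and 164.4 CPM in wt 4 h replicate 5, where the others were 213 to 226.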

How the results depend on the processing

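Depth limits Bhlhe41 most, at 27 to 78 reads per tg library. The 5 members called at 4 h and in the mean of both durations were 5 under every alternative run, except 4 at 4 h when only the 2 groups were fitted. At 2 h, where 2 members were called, limma-voom (without Bhlhe41) and the fit to the 2 groups (without Nr1d1) gave 1 each, DESeq2 gave 3, and leaving out single libraries gave 0 to 2. For 4 h over 2 h in tg, DESeq2 and the fit to the 2 groups gave 1 member, against 0. The cause was not tested.

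Genes called at 2 h numbered 425 with DESeq2 against 270, and 151 to 244 without single libraries, with 165, 177 and 151 without tg 2 h replicates 1, 2 and 5 and 161 without wt 2 h replicate 5. At 4 h they numbered 895 (without wt 4 h replicate 3) to 1887 without single libraries, against 1423. In tg, 4 h over 2 h called 288 genes with DESeq2, 187 without tg 4 h replicate 3 and wt 4 h replicate 1 together (an alternative chosen after seeing the data) and 20 to 134 without single libraries, against 114. Without tg 2 h replicates 3 and 5 it called 20 and 55, and without tg 4 h replicates 1, 4 and 5 it called 35, 41 and 25.

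Replicate numbers showed no clear pairing of the samples. Correlations of deviations between same-numbered tg and wt libraries were -0.329 to 0.186, and 3 of 9 tg libraries correlated best with their own number. So few libraries, centred on their group means, cannot exclude a pairing. With the replicate number as a block, 2 members were called at 2 h and 5 at 4 h.

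Only uncalled values near 0 changed sign. Nr1d2 at 2 h was -0.0109 with upper-quartile scaling and -0.0012 with at least 1 CPM in 4 libraries. Without the 2 libraries together, the mean effect was 0.00082 for Nr1d2 and 0.0717 for Hlf, the difference between durations was 0.0649 for Bhlhe40, and 4 h over 2 h was 0.0599 for Bhlhe40 in tg and -0.0252 for Rora in wt. The mean effect of Hlf was 0.0018 with median-ratio scaling and 0.0019 with DESeq2, and its 4 h over 2 h in tg was -9.87e-05 with limma-voom and -0.0041 with the replicate block. In wt, 4 h over 2 h was -0.0083 and -0.0022 for Nr1d1 and -0.0101 and -0.0057 for Bhlhe41, with at least 1 CPM in 4 libraries and with only the 2 groups.

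Without single libraries, 4 h over 2 h in tg ran from -0.28 to 0.0601 for Bhlhe40, -0.10 to 0.16 for Hlf and -0.33 to 0.32 for Nr1d1. In wt it ran from -0.17 to 0.13 for Bhlhe40, -0.22 to 0.23 for Bhlhe41, -0.25 to 0.0528 for Dbp, -0.18 to 0.10 for Nr1d1 and -0.0249 to 0.14 for Rora. The difference between durations ran from -0.27 to 0.0631 for Bhlhe40, -0.34 to 0.31 for Nr1d1 and -0.10 to 0.0092 for Nr1d2. Hlf ran from -0.16 to 0.0053 at 2 h, -0.0362 to 0.22 at 4 h and -0.0654 to 0.0631 in the mean, and Nr1d2 from -0.0351 to 0.0748 at 2 h, -0.0659 to 0.0169 at 4 h and -0.0304 to 0.0245 in the mean.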
